A study of Salmo salar with 60 samples.

Results

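The 150 array probes described here were those whose level in the distal intestine of Atlantic salmon stood highest on day 5 of soybean meal feeding relative to the sampling days on either side of it, day 3 and day 7. They were taken from 43627 probes. Of these, 16476 had a median background-corrected Cy5 signal of at least 200 over 59 arrays, and 6162 of those had a day 5 mean above both the day 3 mean and the day 7 mean. For each of these probes both differences were divided by the pooled SD between fish of a day, the smaller quotient was taken as the score, and the 150 highest scores were kept. The compared means were those of days 3, 5 and 7, so the day 5 level against those days is given as a description and carries no test. The fish of days 0, 1 and 2 entered the choice through the pooled SD and the signal minimum, but not through their day means. Probes are named by their column and row on the array (C137R069 is column 137, row 69). No gene name could be joined to these positions, so the report speaks of probes, and neither the tissue nor its cell types could be checked against marker genes. Probe sequences are not shown for the same reason.

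The study followed the gut of salmon of the Sunndalsøra breed through their first week on soybean meal. The fish weighed 500 to 600 g at the start, were held in seawater tanks and ate a diet with 563 g of fishmeal per kg for 7 days before the change. The day 0 fish (n = 9 here) had eaten only that fishmeal diet. The fish of days 1, 2, 3, 5 and 7 (n = 10 each) came from 2 tanks given a diet in which soybean meal, 200 g per kg, stood in for some of the fishmeal, for the number of days named, and both tanks gave 5 fish on each of these days. Only fish with gut content were taken. Total RNA of each fish, labelled with Cy5, was hybridised against 1 Cy3-labelled pool of 18 fish, 3 from each sampling day. Day 5 fish thus also contributed to the pool. One further array, titled day 1 and tank 0, belongs to no tank of the design and entered no group.

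The distal intestine of salmonids absorbs nutrients and takes up intact protein by endocytosis into large vacuoles of its enterocytes. Soybean meal in the feed is known to cause an inflammation of this gut segment in salmon, in which the mucosal folds shorten, the vacuoles are lost and inflammatory cells enter the lamina propria. An array probe reads the abundance of a transcript in the whole tissue piece, so a lower value for a cell type's transcripts can come from fewer such cells or from less RNA per cell, and these cannot be told apart here.

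Levels below are the authors' log2 ratios of fish to pool, centred on each probe's median over all 60 arrays, so a level of 0 is the middle fish for that probe and levels of different probes cannot be ranked. On this scale the median of the 150 day means was 0.068 for day 0, 0.028 for day 1, -0.045 for day 2, -0.052 for day 3, 0.34 for day 5 and -0.076 for day 7. The day 5 mean lay above 0 for 150 of 150 probes, ranging from 0.073 to 1.33. The choice of members fixed the height of day 5 over days 3 and 7 and, by favouring a high day 5 mean, also made a height over days 0, 1 and 2 likely. Day 5 was the highest of the 6 days for 148 probes, while 27.3% of the 16476 probes bright enough to enter had their highest mean on that day. The exceptions were C242R141, highest on day 1 at 0.16 against 0.11 on day 5, and C214R101, highest on day 0 at 0.27 against 0.23 on day 5. Day 5 means of 19 probes lay within 0.1 of the highest of days 0, 1 and 2.

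The label "higher on day 5 only" therefore holds for most of the 150 probes as an order of day means, and not as a gap from every other day. The second highest day was day 0 for 77 probes and day 1 for 49, against 13 for day 2, 8 for day 3, 2 for day 7 and 1 for day 5. The lowest day was day 7 for 56 probes, day 3 for 45 and day 2 for 38, against 9 for day 1 and 2 for day 0. The median profile thus lay a little lower on days 2 and 3 than on days 0 and 1, stood high on day 5 and was lowest on day 7. The choice of members also favoured low means on days 3 and 7, so these counts and this profile partly follow from it. Lowest and second highest days were not counted over the probes bright enough to enter.

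The differences were small in absolute size. Day 5 minus day 3 had a median of 0.40 over the 150 probes, or 1.32-fold, and ran from 0.14 to 1.75. Day 5 minus day 7 had a median of 0.41, or 1.33-fold, with a range of 0.14 to 1.54. Day 5 minus the mean of days 0, 1 and 2 had a median of 0.33, or 1.26-fold, ranging from 0.012 to 1.34. Both differences exceeded 0.5 for 27 probes and exceeded 1, a doubling, for 1 probe, C109R167. The median member had a pooled within-day SD of 0.34, against 0.39 for the median probe bright enough to enter. Scores ran from 0.919 to 1.81, with a median of 1.04, so a typical member differed from its nearer neighbouring day by about 1 SD between fish. The smaller of both quotients was the one against day 3 for 88 probes and the one against day 7 for 62.

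The rank limit cut through a continuous range. The last probes inside were C065R046, C072R088 and C121R027, with scores of 0.921, 0.920 and 0.919, and the first outside were C079R096, C050R040 and C135R013, with 0.915, 0.915 and 0.914. No member separated the days completely. For 0 of 150 probes did all day 5 fish lie above all fish of day 3, and likewise for 0 above all fish of day 7. In the median probe, 9 of 10 day 5 fish lay above the day 3 median and 9 of 10 above the day 7 median. All 10 day 5 fish lay above the day 3 median for 34 probes and above the day 7 median for 60. The choice favoured such counts, and no share over all probes bright enough to enter was computed.

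Probe C137R069 had the highest score, 1.81. Its day 5 fish ran from -0.27 to 0.83 with a median of 0.51, while the fish of days 3 and 7 had medians of -0.15 and -0.085. Days 0, 1 and 2 had medians of 0.014, -0.017 and -0.16. The highest fish of day 0, replicate 1, reached 0.78 and so lay inside the day 5 range, and so did the highest fish of every other day. The day means gave 0.60 for day 5 minus day 3 and 0.58 for day 5 minus day 7.

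Probe C169R055 followed, with a score of 1.69. Its day 5 fish lay between -0.18 and 0.87, with a median of 0.44, against medians of -0.16 on day 3 and -0.15 on day 7. On day 0 the median was 0.17 and the highest fish stood at 0.68, so day 0 was nearest to day 5. Probe C005R133, with the next score at 1.60, was brighter than both, with a median Cy5 signal of 5960. Its day 5 fish ran from -0.086 to 0.72 around a median of 0.24, against medians of -0.098 on day 3 and -0.11 on day 7. Day 5 exceeded these days by 0.38 and 0.38 in the mean, on an SD between fish of 0.24.

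Probe C109R167 had the largest differences of the 150, at 1.75 over day 3 (3.35-fold) and 1.54 over day 7 (2.91-fold). Day 5 fish ran from -0.045 to 2.77 with a median of 1.41, against medians of -0.63 on day 3 and -0.16 on day 7. It was also the most variable member, with a pooled SD of 1.04. Its day 0 fish already spanned -1.84 to 2.08 and its day 1 fish -2.24 to 2.05, so single fish of both days lay above the day 5 median.

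Probe C132R054 stood at a median of 0.47 on day 5 (-0.063 to 0.76), against -0.092 on day 3 and -0.28 on day 7. In C004R149 the day 5 fish had a median of 0.53 and reached 1.49, against medians of -0.080 on day 3 and -0.31 on day 7. All 10 day 7 fish of C004R149 lay at or below -0.007, and 9 of 10 day 5 fish lay above that value.

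The other probes among the 12 highest scores were C182R124, C163R126, C047R014, C007R133, C037R014 and C015R011, with day 5 minus day 3 from 0.27 to 0.57 and day 5 minus day 7 from 0.27 to 0.56. C007R133 and C037R014 had the smaller differences among these and also the smaller spread between fish, with pooled SDs of 0.20 and 0.22. C182R124 had a day 5 median of 0.47 (-0.18 to 0.94), against -0.063 on day 3 and -0.044 on day 7. In C047R014, a dim probe with a median Cy5 signal of 254, the day 5 fish had a median of 0.51 and reached 1.21, against medians of -0.032 on day 3 and -0.096 on day 7, and its day 2 median of 0.18 lay between. C163R126 had 10 of 10 day 5 fish above 0 (0.004 to 0.75), while its day 3 median was 0.10, above that of every other day but day 5. C015R011 had the lowest single day 5 fish of the 12, replicate 9 at -0.49, and a day 5 median of 0.32, against -0.085 on day 3 and -0.10 on day 7.

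C037R014 was the second brightest member, with a median Cy5 signal of 57729. Its day 5 fish lay between 0.013 and 0.36 with a median of 0.15, so all 10 were above 0, and the day 3 fish had a median of -0.11 (-0.39 to 0.13). Deposited flag code 3, which carries no key, was set for this probe on 32 of 59 arrays. Bright and dim members both occurred. The median Cy5 signal was 1840.75 for the median member, against 1196.75 for the median probe bright enough to enter, and lay above 1000 for 71.3% of the members, against 54.8% of those probes. The brightest was C214R101 at 64832.5, with code 3 on 47 arrays. Its day 5 median of 0.069 lay below its medians of 0.19 on day 0 and 0.20 on day 1, so its high place rests on days 3 (-0.23) and 7 (-0.14). Whether signals as bright as those of C214R101 and C037R014 came near the scanner's upper limit, which would distort their ratios, was not tested. The next, C223R118 at 36226, had a day 5 median of 1.23, against 0.12 on day 3 and -0.50 on day 7, and a pooled SD of 0.93. At the dim end stood C141R138, C005R086 and C070R021, at 204.5, 243 and 244. C141R138 had a day 5 median of 0.47 (-0.15 to 1.13), against 0.018 on day 3 and -0.42 on day 7. Its highest day 5 fish was replicate 2, which had the lowest mean over the members among the day 5 fish. Any code 3 fell on 40 of the 150 probes and code 2 on 0. The share with code 3 among all probes bright enough to enter was not computed, so this count cannot be called high or low.

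Mean levels over the 150 probes showed which fish carried the pattern. On day 5 the mean was 0.36 ± 0.23 (SD, n = 10 fish), with a lowest fish at -0.069 (replicate 2), a median of 0.37 and a highest fish at 0.63 (replicate 8). The day 0 fish averaged 0.069 ± 0.25 (n = 9), with a median fish at -0.018. The means were 0.029 ± 0.20 for day 1, -0.052 ± 0.16 for day 2, -0.054 ± 0.15 for day 3 and -0.087 ± 0.28 for day 7 (n = 10 each). Of the day 5 fish, 9 of 10 had a mean above 0, against 17 of the 49 fish of other days. Replicate 8 of day 5 stood above 0 for 148 of the 150 probes and among the 10 highest of 59 fish for 120 of them. Replicate 2 of day 5 stood above 0 for 49 probes and among the 10 highest for 5.

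High levels of these probes were not limited to day 5 fish. Among the fish of other days, 7 of 49 had a mean above 0.25, against 7 of 10 on day 5, and 4 of 49 lay above the day 5 median. On day 0, before any soybean meal, replicates 1, 2 and 7 had means of 0.40, 0.44 and 0.30, while the other 6 fish lay between -0.22 and 0.004. On day 1 replicate 7 reached 0.46, on day 2 replicate 10 reached 0.31, and on day 7 replicates 2 and 7 reached 0.37 and 0.47. The day 3 fish were the most uniform, from -0.28 to 0.21. The array titled day 1 and tank 0 had a mean of -0.095.

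The channels were read apart to see on which side of the ratio the day 5 level lay. In the Cy5 channel, which holds the fish, the members' log2 signal minus that of the median probe bright enough to enter averaged 1.17 ± 0.20 on day 5, against 0.80 to 0.95 as the means of the other days. In the Cy3 channel, which holds the same pool on every array, it averaged 0.93 ± 0.026 on day 5, against 0.96 to 0.97 on the other days. The members' day 5 height lay mostly in the fish channel, with a slight opposite move in the pool channel. A choice for a high ratio on day 5 favours both moves, so these channel values are a description. The log2 ratio of the channel medians of whole arrays averaged 0.18 ± 0.43 on day 5, against means from -0.15 to 0.12 on the other days.

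The probes moved together from fish to fish. After removal of day means, 2 members correlated over the 59 fish with a median r of 0.32, and 90.1% of 11175 pairs lay above 0, whereas pairs of probes bright enough to enter had a median of 0.0002. Every point shares its array, its pool and its labelling reaction, and probes chosen on the same fish share those fish, so these values are a description. The closest pair was C216R053 and C003R020, at r = 0.953. Their day 5 fish had medians of 0.76 and 0.77, against 0.19 and 0.13 on day 3 and -0.13 and -0.10 on day 7, and both had their highest day 7 fish in replicate 2, at 1.15 and 1.52. Of the 11175 pairs, 6 exceeded 0.9, and C032R008 belonged to 3 of them. Such pairs were also rare among probes bright enough to enter, at 0.038%. Whether such pairs read the same transcript was not tested.

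Much of this common movement ran along the leading axis of the arrays. The first principal component of the probes outside the list, computed on loess-normalised log2 ratios, held 26.9% of their variation between arrays, and its sign was set so that the largest score is positive. After removal of day means, the members' correlation with it over 59 fish had a median of 0.54 and exceeded 0.5 for 56.0% of them, against 24.0% of the probes bright enough to enter. In the 29 fish of days 0, 1 and 2, whose spread but not day means entered the choice of members, the median was 0.52 and the share above 0.5 was 51.3%, against 25.2%. No member lay below -0.5 in either set of fish, and the share of probes bright enough to enter below -0.5 was not counted. Over the 59 fish the correlation was above 0 for 141 of 150 members, against 50.5% of the probes bright enough to enter. Day 5 fish scored higher on this axis than those of other days on average. The choice for a high day 5 mean thus favoured a positive sign, so these shares are a description. In those 29 fish the mean over the members followed the score with r = 0.866 and rho = 0.810, with r = 0.849 without the 2 fish farthest from the median score and r = 0.791 in the fish scoring below 50.

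Scores of 50 or more occurred on 9 of 59 arrays. They were replicates 8, 9 and 10 of day 5, replicates 2 and 7 of day 0, replicate 7 of day 1, replicate 10 of day 2 and replicates 2 and 7 of day 7, and no day 3 fish. Each of these fish also had a member mean of 0.30 or more. Which property of the samples this axis reads was not tested. In the fish of days 0, 1 and 2 the member mean followed the log2 ratio of the channel medians with r = 0.466. Day 5 scored 20.1 ± 41.2 on this axis, against means from -8.80 to -0.38 on the other days. Within day 5 the member mean followed the score with r = 0.891 (n = 10). Day means were not removed from the score, so as a covariate it can take up part of a day 5 difference. With the score as a covariate in the fit, the members' median day 5 height over days 0, 1 and 2 was 0.21, against 0.32 without it, on the loess scale. It was smaller for 139 of 150 probes, and 149 stayed above 0. The medians over days 3 and 7 were 0.27 and 0.26 with the covariate, against 0.36 and 0.39 without it. With the 9 arrays left out, a setting chosen after seeing the data, the median height over days 0, 1 and 2 was 0.25.

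The members fell along a range in this respect. For 84 probes the correlation with the axis was 0.5 or more, led by C216R053 at 0.914. Their median day means were 0.38 on day 5, against -0.036 on day 3 and -0.056 on day 7, and their height over days 0, 1 and 2 was 0.20 with the covariate, against 0.35 without it. For 27 probes it was under 0.2, and these included C005R133, C004R149 and C015R011 among the 12 highest scores. The median day means of these 27 were 0.27 on day 5, against -0.076 on day 3 and -0.10 on day 7, and their height over days 0, 1 and 2 was 0.24 with the covariate, against 0.25 without it. The covariate is the score that split the probes, so its smaller effect in these 27 largely follows from the split. The lowest correlation was that of C011R073, at -0.20. Its day 5 fish had a median of 0.17, against -0.023 on day 3 and -0.10 on day 7. Its highest day 5 fish was replicate 2 at 0.45, which had the lowest member mean of the day 5 fish.

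Days 0, 1 and 2 were compared to ask whether these probes had already changed over the first days of feeding. The day means of these fish did not enter the choice of members, while their spread did, through the pooled SD. With limma on loess-normalised log2 ratios over 43627 probes, 0 of 150 members passed a Benjamini-Hochberg adjusted p of 0.05 for day 1 against day 0, where 0% of all probes did. At an unadjusted p under 0.05, 1 member was higher and 0 lower, against 1.43% and 1.39% of all probes and 0.534% and 0.431% of those bright enough to enter. That member was C005R086, whose fish had a median of 0.25 on day 1 (-0.13 to 0.76), against -0.086 on day 0 (-1.05 to 0.36). The fitted difference was 0.36 with an SE of 0.15, and the limma adjusted p was 1.00. The day 1 difference of the members had a median of -0.030, against 0.003 for all probes.

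For day 2 against day 0, 0 members and 0% of all probes passed the adjusted threshold in limma. Unadjusted, 0 members were higher and 6 lower, or 4% of the members, against 1.58% and 1.42% of all probes and 0.734% and 0.589% of those bright enough to enter. The 6 were C186R124, C214R101, C197R164, C016R109, C205R069 and C209R064, with differences from -0.49 to -0.20. C186R124 had the smallest p. Its day 2 fish had a median of -0.34 (-0.71 to 0.33), against 0.27 (-0.13 to 0.44) on day 0, so the ranges overlapped, and the fitted difference was -0.39 with an SE of 0.13 and a limma adjusted p of 1.00. The difference was below 0 for 121 of 150 members and above 0 for 19.3% of them. It was above 0 for 51.0% of all probes and 51.5% of those bright enough to enter, with medians of 0.003 and 0.005. The members moved together from fish to fish, so their signs are not independent. Their median was -0.10 in the main scaling and 0.026 with median centring of each array in place of loess, so its direction depends on the scaling.

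For day 2 against day 1, 0 members and 0% of all probes passed in limma, with unadjusted counts of 0 higher and 6 lower members, against 2.18% and 2.14% of all probes and 1.61% and 1.78% of those bright enough to enter. C016R109 had the smallest p, and its day 2 fish had a median of -0.12 (-0.38 to 0.20), against 0.088 on day 1 (-0.20 to 0.37). The fitted difference was -0.23 with an SE of 0.093 and a limma adjusted p of 0.999. The members' median was -0.079 with loess and 0.11 with median centring, again of opposite sign. The smallest p in the higher direction belonged to C023R149 for day 2 against day 0, at a difference of 0.18, and to C154R121 for day 2 against day 1, at 0.13. The precision bounds these results. The median half-width of the members' 95% intervals was 0.29 for day 1 and for day 2 against day 0. This was near their median day 5 height over days 0, 1 and 2, which was 0.32 on the loess scale. The whole interval lay within 1 log2 unit of 0 for 150 members on day 1 and for 149 on day 2. This bound is loose, since 98.3% of all probes met it on either day. The interval lay within 0.5 of 0 for 78.7% of the members on day 1 and for 72.7% on day 2. The shares of all probes were 77.0% and 76.8%.

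Both tanks showed the day 5 height, to different extents. The choice set that height over the fish of both tanks together, so its presence in each tank largely follows from the choice. The values by tank are a description. Day 5 fish averaged 0.50 ± 0.15 over the members in tank 1 and 0.22 ± 0.21 in tank 2 (SD, n = 5 each). The single fish stood at 0.28, 0.41, 0.63, 0.54 and 0.62 in tank 1 (replicates 6 to 10) and at 0.17, -0.069, 0.51, 0.32 and 0.17 in tank 2 (replicates 1 to 5). All 5 fish of tank 1 were high, 2 of tank 2 reached 0.32 or more, and the tanks overlapped. On days 3 and 7 the tanks averaged -0.046 ± 0.12 and -0.074 ± 0.31 in tank 1 and -0.061 ± 0.18 and -0.099 ± 0.28 in tank 2. Day 5 lay above both day 3 and day 7 for 150 of 150 probes in tank 1 and for 146 in tank 2. The median of day 5 minus the mean of days 3 and 7 was 0.54 in tank 1 and 0.26 in tank 2, and it was larger in tank 1 for 131 probes. The 4 exceptions in tank 2 were narrow. Day 5 minus day 3 was -0.022 for C015R066, -0.013 for C022R115 and -0.0056 for C182R109 there, and day 5 minus day 7 was -0.0095 for C229R062. For C109R167, day 5 minus day 3 was 1.39 in tank 1 and 2.10 in tank 2, while day 5 minus day 7 was 1.80 in tank 1 and 1.29 in tank 2.

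The tank difference of this day 5 height was fitted on the same fish that chose the members. The choice averaged over tanks with 5 fish in each, so no tank difference was scored, although the pooled SD held it. Day 5 fish averaged 39.8 on the leading axis in tank 1 and 0.47 in tank 2. A choice for a high day 5 mean was thus not free of the tank. The members' counts and median here are a description and not an independent test. In limma, 0 members and 0% of all probes passed the adjusted threshold. Unadjusted, 9 members had a larger height in tank 1 and 0 in tank 2, against 2.79% and 2.56% of all probes and 2.94% and 2.91% of those bright enough to enter. The smallest p belonged to C015R066, whose tank difference was 0.66 with an SE of 0.23 and a limma adjusted p of 0.901. Day 5 minus day 3 for this probe was 0.78 in tank 1 and -0.022 in tank 2 on the value table's scale. The tank difference was above 0 for 127 of 150 members, against 50.5% of all probes. Over all probes its median was 0.003, and over the members it was 0.23. The median was 0.051 with the score on the leading axis as a covariate, and replicates 8, 9 and 10 of day 5, the day 5 fish at 50 or more on that axis, were all of tank 1. The members' 95% intervals were wide here, with a median half-width of 0.49. Over all days, tank 1 against tank 2 gave 0 members and 0% of all probes past the adjusted threshold in limma. At an unadjusted p under 0.05, 4 members were higher and 0 lower. The shares were 2.1% and 2.35% of all probes and 1.48% and 2.27% of those bright enough to enter. C214R101, the brightest member, led the 4 at 0.22 with an SE of 0.085 and a limma adjusted p of 0.955. This fit also held the fish of days 3, 5 and 7 that chose the members, so these counts are a description too. Over the members, tanks 1 and 2 averaged 0.50 and 0.22 on day 5. They averaged 0.033 and 0.098 on day 0, 0.099 and -0.041 on day 1, and -0.034 and -0.070 on day 2.

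The 60 arrays lay on 15 slides of 4. On the 8 slides that held day 5 fish, the member mean of day 5 fish exceeded that of the slide's other fish on 7, by 0.30 to 0.79. On the slide that held replicate 2 of day 5 the difference was -0.18. On the 6 slides that also held fish of day 3 or 7, day 5 was higher on all 6, by 0.15 to 0.92. The members were chosen for this height in the same fish, so the slide values are a description. On the array surface, 6.67% of the members had another member within 2 columns and rows, against 7.55% of the probes bright enough to enter. C005R133 and C007R133, ranks 3 and 10 by score, lay 2 columns apart in the same row and correlated at 0.20.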

How the data were processed

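Single fish (Cy5) were hybridised with a common pool (Cy3), and no dyes were swapped, per the labels' protocols. Each file held 45220 spots with intensity values in both channels, which the authors had corrected for background, per the file headers. Control spots (1531) and 62 probes with flag code 1 were left out. The authors also deposited log2 values, which track log2(Cy5/Cy3) with every probe's median over 60 arrays set to 0. The sources used here do not name the scanner software or the authors' normalization. The direction of the ratios rests on the stated dyes. Between any 2 arrays, the log ratios of all probes had correlations of -0.447 to 0.625.

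The score used the pooled SD over all 6 days, and thus also the spread of the day 0, 1 and 2 fish. For tests, negative signals were set to 0, 50 was added to both channels, and log2(Cy5/Cy3) was normalised by loess within each array. Dim probes are thereby understated. The 59 arrays entered linear models (limma 3.58.1, R 4.3.3, lmFit and eBayes), and p-values were adjusted by Benjamini-Hochberg over 43627 probes. The day model had no covariate, the tank model had day, and the model of the tank difference on day 5 had day, tank and their interaction. Fish were treated as independent although they came from 2 tanks. The fit was tested on simulated data with planted changes of 2 log2 units. These were far larger than the members' median differences, so that test does not show whether changes of their size would be found. The number of arrays limits the precision.

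Members, lists and tests were chosen with earlier results of these data known. Probes named were the 12 highest scores, the 3 ranks on either side of the limit, the 3 brightest and 3 dimmest, the smallest p in each direction of each test, the highest and lowest correlation with the leading axis, and the closest pair. Other probes named beside a count were chosen after their values were seen. Gene lists and cell type markers gave no result, because probes could not be named. Alternatives varied background, scaling, the value table, brightness, slide, position, tank, replicate number, the leading axis, the spread estimate, weights and single arrays.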

Additional observations from a re-analysis of the deposited data

Results flagged for a closer look

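Single fish were searched for in each day of the 12 highest scores and of the mean over the 150 probes. A fish was listed where its gap to the next fish took an unusually large share of the day's range, and chance alone lists about 1 in 20 days. C137R069 had a low day 5 fish, replicate 2, at -0.27, with the next at 0.38. C169R055 had a high day 7 fish, replicate 7, at 0.81 (next 0.20). C005R133 had a low day 2 fish, replicate 1, at -0.58 (next -0.14). C163R126 had a low day 1 fish, replicate 5, at -0.82 (next -0.28), and C037R014 a low day 1 fish, replicate 9, at -0.42 (next -0.074). In all, 5 of 78 sets of values were listed.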

How the results depend on the processing

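Counts past the adjusted threshold stayed at 0 in all 5 tests under every alternative run and with each array left out in turn. The members' median differences ranged over the alternatives from -0.11 (tank 2 only) to 0.038 (tank 1 only) for day 1 against day 0, from -0.21 (slide as fixed block) to 0.026 (median centring) for day 2 against day 0, and from -0.17 to 0.11 under the same settings for day 2 against day 1. They ranged from -0.062 (replicate block) to 0.074 for tank 1 against tank 2, from 0.051 (leading axis as covariate) to 0.28 (slide as fixed block) for the tank difference of the day 5 height, and from 0.19 (tank 2 only) to 0.43 (tank 1 only) for the day 5 height over days 0, 1 and 2. Leaving out 1 array gave -0.069 to 0.018, -0.14 to -0.066, -0.11 to -0.034, 0.048 to 0.078, 0.14 to 0.29 and 0.28 to 0.35 for these 6 medians in turn. Unadjusted counts, 1, 6, 6, 4 and 9 members in the 5 tests, ran between 0 and 4 (without day 0 replicate 4), 22 and 21 (slide as fixed block), 12 (without day 7 replicate 2) and 22 (without day 7 replicate 7), with 0 under median centring for both day 2 tests and the tank difference of the day 5 height. The cause of these shifts was not tested.

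Replicate numbers did not pair fish. Over 140 pairs of arrays with the same number, deviations from day means correlated at 0.030 on average (-0.53 to 0.69). The replicate block changed no call. With it the median of tank 1 against tank 2 was -0.062, and numbers 1 to 5 and 6 to 10 lie mostly in different tanks, so little of the tank difference is left to that fit.

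Of the 150 probes, 137 were also chosen from loess ratios, 131 and 126 with a Cy5 minimum of 100 and 500, 115 with the SD of days 3, 5 and 7 alone, and 42 by plain log2 differences. Leaving out 1 fish kept 100 (without day 7 replicate 7) to 138. The rule applied to tank 1 or tank 2 alone, added after seeing the data, shared 51 and 32 probes with the list.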
